A study of Mus musculus with 8 samples.

Results

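The genes of cholesterol supply and removal were followed in the hippocampus of adult male mice exposed to bisphenol A (BPA, a plasticiser monomer) before weaning. The 31 genes were taken by symbol from the 24527 rows of the deposited count table and ordered by their place in the pathway: 19 enzymes of synthesis, 4 proteins that sense sterol, and 8 proteins that carry, store or remove it. All 31 were found, and all 31 had enough reads to be tested. The 8 mice were wild-type C57BL/6J males of 20 weeks. Dams of the 4 control mice ate a low-phytoestrogen feed, and dams of the 4 BPA mice ate that feed with 50 mg BPA per kg of diet, through gestation and lactation. Every mouse was on control feed from weaning at postnatal day 21. Polyadenylated RNA of the dissected hippocampus was sequenced, 1 library per mouse. The series text gives the mice as independent replicates but does not say which dams or litters they came from, and p-values speak only for the spread among these 8 mice.

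Cholesterol of the brain is made in place, because lipoproteins of the blood do not cross the blood-brain barrier. In adults astrocytes make much of it and pass it to neurons on particles built around apolipoprotein E, and oligodendrocytes hold large amounts in myelin. When sterol in the endoplasmic reticulum is low, SCAP escorts the transcription factor SREBP2 to the Golgi for cleavage, and SREBP2 then induces the enzymes of synthesis; INSIG proteins hold the SCAP complex back when sterol is high. Neurons remove cholesterol by turning it into 24-hydroxycholesterol, and oxidised sterols activate the liver X receptors (LXR), which induce exporters such as Abca1.

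SREBP2 and the liver X receptors act on the promoters and enhancers of their targets. RefSeq promoters of the GRCm38.p6 build, 250 bases before to 50 bases after the annotated start, were listed for 26 of the 31 genes; Fdps, Fdft1, Sqle, Stard4 and Npc1 had no entry. Of the 3 promoters shown, Hmgcs1 was the only member with a match to the sterol element searched, and Insig1 and Abca1 were chosen after their values were seen, because Insig1 had the widest range of levels (log2 of CPM, the counts per mega total counts of a library) over the libraries and Abca1 the smallest p. The 250 bases before the start are printed 5′ to 3′ on the gene's strand, and capitals mark motif matches. For Hmgcs1 they are TCACCCCAC (sterol element) and ATTGG (NF-Y box, reverse strand), for Insig1 ATTGG and CACGTG (E-box), and for Abca1 CACGTG.
Hmgcs1, chr13:119690101-119690350, plus strand: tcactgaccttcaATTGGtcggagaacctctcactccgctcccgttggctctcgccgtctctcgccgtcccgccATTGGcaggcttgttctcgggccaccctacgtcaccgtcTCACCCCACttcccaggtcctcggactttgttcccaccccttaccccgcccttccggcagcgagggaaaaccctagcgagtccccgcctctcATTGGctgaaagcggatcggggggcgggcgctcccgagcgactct
Insig1, chr5:28071162-28071411, plus strand: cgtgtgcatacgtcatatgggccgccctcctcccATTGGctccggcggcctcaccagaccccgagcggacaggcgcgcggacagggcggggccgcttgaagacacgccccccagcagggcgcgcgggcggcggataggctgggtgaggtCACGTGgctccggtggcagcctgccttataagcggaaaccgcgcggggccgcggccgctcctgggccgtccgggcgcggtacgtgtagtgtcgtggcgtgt
Abca1, chr4:53159896-53160145, minus strand: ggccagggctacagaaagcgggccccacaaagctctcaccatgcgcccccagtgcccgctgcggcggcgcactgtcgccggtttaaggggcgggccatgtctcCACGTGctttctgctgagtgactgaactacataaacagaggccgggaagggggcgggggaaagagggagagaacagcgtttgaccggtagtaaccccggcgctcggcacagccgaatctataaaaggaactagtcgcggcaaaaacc
Each motif was searched on both strands of the full 300-base windows, and no 2 matches overlapped in these 3 promoters. The sterol element TCACNCCAC was found in 1 of the 26 genes and in 1.44% of all genes with a promoter. CCAAT, the box bound by NF-Y, a partner of SREBP on sterol-regulated promoters, was found in 21 of the 26 genes and in 41.1% of those 27025 genes. It was present in 18 of the 20 synthesis and sensing genes listed. CACGTG was found in 6 genes (Hsd17b7, Sc5d, Dhcr7, Scap, Insig1 and Abca1) and in 8.09% of all genes. A match is a description of these letters, not a mapped site.

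The libraries of control mice had totals of 27.1 to 40.8 M (mega) counts and those of BPA mice 43.1 to 54.01 M, so BPA libraries were the deeper ones without overlap (exact permutation test, two-sided, p = 0.02857, which is the lower limit for groups of 4). Exposure and depth cannot be told apart by group. Prox1, a marker of dentate granule cells, was at 85.02 and 87.1 CPM in control replicates 1 and 4. In the other 6 libraries it was at 117 to 131 CPM. Neurod6, a marker of pyramidal neurons, was at 276 to 374 CPM in the 8 libraries. Both were chosen after their values were seen. Choroid plexus RNA varied most: the summed level of its 12 markers was 3182 CPM in control replicate 2 and 852 CPM in BPA replicate 3, against 171 to 369 CPM in the other 6 libraries. In bulk tissue, fewer cells of a type and less RNA per cell cannot be told apart.

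Per length, Apoe stood far above the rest. Levels between genes are given in TMM-scaled CPM per kilobase of exon, with exon length from transcripts that have a RefSeq match. Apoe, the gene of apolipoprotein E, was at 675 ± 5.59 in controls (SD, n = 4), followed by Hmgcs1 at 82.3 ± 7.33 and Msmo1 at 59.2 ± 3.79. These 3 did not overlap one another within 1 SD. Cyp46a1, Ggps1 and Lrp1 came next, at 27.0 ± 0.900, 25.6 ± 0.573 and 24.2 ± 3.47, and the SD ranges of Lrp1 and its neighbours overlapped. Insig1, Fdft1, Srebf2, Idi1 and Insig2 lay between 20.1 and 17.8, and neighbours in that order overlapped within 1 SD. The scarcest transcripts were the enzymes Mvd, Mvk and Tm7sf2, at 3.50 ± 0.407, 3.37 ± 0.155 and 3.21 ± 0.202. Within the mevalonate arm, Hmgcs1 was the highest of the enzymes per length and Mvk among the lowest.

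**Figure D1:**
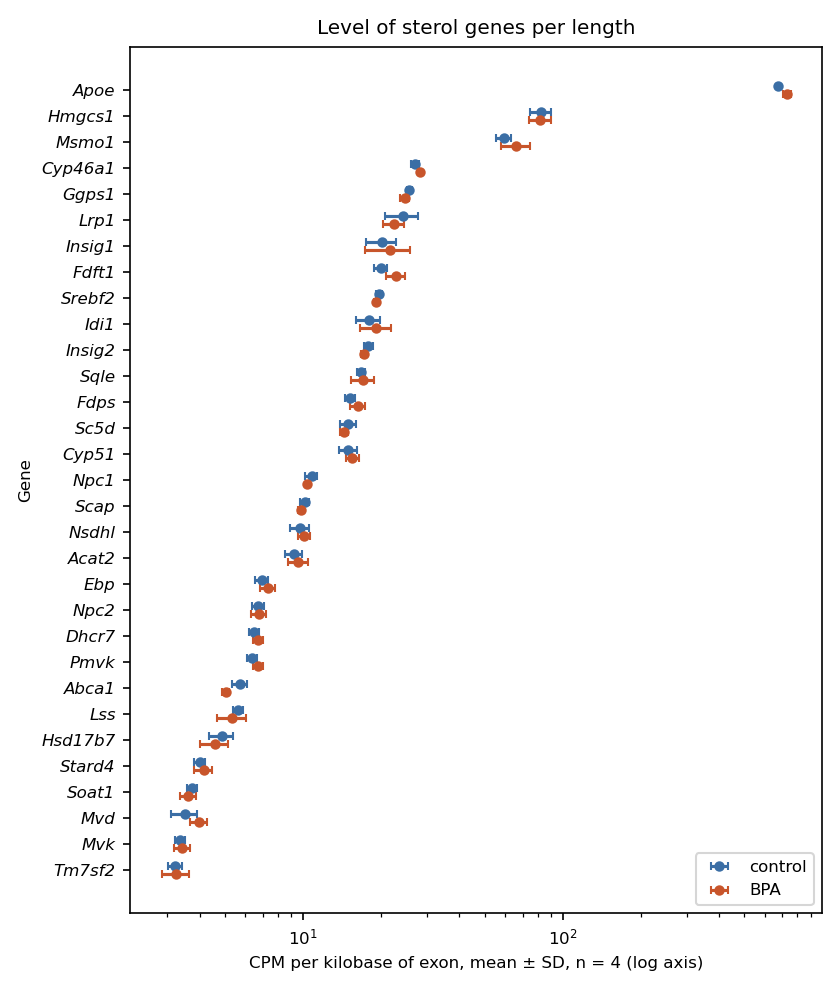
Level of the 31 genes in CPM per kilobase of exon on a log axis, ordered by the control mean; points are means and bars SD over 4 mice, blue for control and orange for BPA. Apoe is at 675 in controls and 728 in BPA mice, and Tm7sf2, the lowest, at 3.21 and 3.25.

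The comparison asked whether these transcripts differed in adulthood after an exposure that ended at weaning. None of the 31 genes passed the test (edgeR quasi-likelihood, Benjamini-Hochberg over 15434 genes, lowest adjusted p 0.955), as was the case for all tested genes, of which 0.0% passed. DESeq2 called 0 of the 31 (lowest adjusted p 0.833) and 7 genes in all. An unadjusted edgeR p under 0.05 was reached by 3 of the 31, Fdft1 and Apoe with higher and Abca1 with lower levels in BPA mice, where 4.52% of all tested genes reached it (2.22% higher and 2.3% lower in BPA mice). By count that is 3 of 31 against 698 of 15434. In this edgeR fit, which has no depth term, the 95% interval stayed within a 1.25-fold change either way for 27 of the 31. It stayed within 1.5-fold for all 31. The 4 with wider intervals were Mvd, Fdft1, Msmo1 and Insig1, whose upper bounds lay between 1.26 and 1.32. With log2 library total added to the model, the log2 fold changes of Lrp1 (-0.44), Hmgcs1 (0.16) and Sc5d (0.094) lay outside these intervals.

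**Figure D2:**
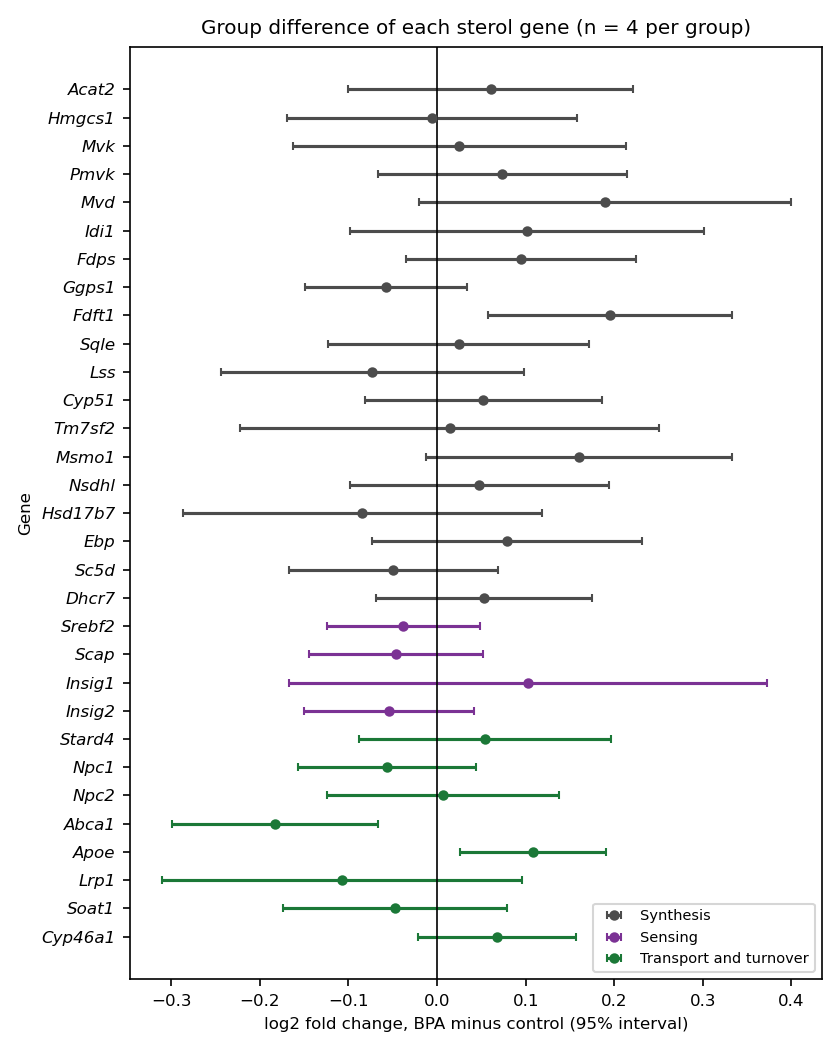
Difference between BPA and control mice for each gene in pathway order, as log2 fold change with its 95% interval (4 mice per group). Fdft1 (0.19) and Apoe (0.11) lie above 0 and Abca1 (-0.18) below 0 with their whole intervals, and none passes after adjustment.

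Synthesis starts with the condensation of acetyl units into mevalonate and its phosphorylation. Hmgcs1, the cytosolic synthase that makes HMG-CoA, was at 284, 270.3, 268 and 323 CPM in control replicates 1 to 4 and at 267, 257, 305 and 312 CPM in BPA replicates 1 to 4. The groups overlapped in part: BPA replicates 1 and 2 lay below every control. Control replicate 4 was the highest and BPA replicate 2 the lowest of all 8. Its fold was 0.996 (95% interval 0.889 to 1.12). Acat2, the thiolase of the step before, was at 20.7 ± 1.54 CPM (controls) and 21.6 ± 1.94 CPM (BPA mice), a fold of 1.04 (95% interval 0.933 to 1.17). A near copy, Acat3, was counted at 3.69 ± 0.294 and 3.74 ± 0.462 CPM, and how reads shared by both were split is not stated.

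The kinases Mvk and Pmvk differed little between groups, with folds of 1.02 (95% interval 0.893 to 1.16) and 1.05 (0.955 to 1.16). Mvd, which decarboxylates the product to isopentenyl diphosphate, had a larger mean in BPA mice, 7.40 ± 0.560 against 6.50 ± 0.756 CPM, and its interval still held no change (fold 1.14, 0.986 to 1.32). Idi1, the isomerase that makes its partner for chain building, was at 48.4 to 61.6 CPM (controls) and 50.7 to 67.8 CPM (BPA mice), with BPA replicate 4 highest. Of these 6 genes up to Idi1, 5 had a log2 fold change above 0, with a median of 0.067, beside 50.0% of all tested genes above 0 and a median of 4.91e-05.

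Prenyl diphosphates are the branch point toward sterols, dolichol, ubiquinone and prenylated proteins. Fdps, which builds farnesyl diphosphate, was at 22.1 ± 1.00 CPM (controls) and 23.6 ± 1.53 CPM (BPA mice), a fold of 1.07 (95% interval 0.976 to 1.17). Ggps1 makes the longer geranylgeranyl diphosphate outside the sterol branch. It was at 109 ± 2.43 CPM and 104 ± 4.14 CPM (fold 0.961, 0.902 to 1.02), so the 2 point estimates lay on opposite sides of no change and neither passed.

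Fdft1, squalene synthase, commits farnesyl units to sterol. It was the only enzyme with an unadjusted p under 0.05 when all libraries were used. It was at 76.7, 71.8, 68.6 and 77.9 CPM in control replicates 1 to 4 and at 77.5, 80.1, 86.3 and 93.8 CPM in BPA replicates 1 to 4. The groups met at one point only: BPA replicate 1 lay just below control replicate 4, and the other 3 BPA libraries lay above every control. The fold was 1.14 (95% interval 1.04 to 1.26; log2 0.19 ± 0.063, SE), with an edgeR adjusted p of 0.955. Fdft1 (chromosome 14, 63145150 to 63179578, mm10) shares 774 exon bases with Ctsb on the opposite strand, and whether counting used strand is not stated. Ctsb itself was at 324 ± 14.1 CPM (controls) and 323 ± 9.56 CPM (BPA mice).

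Sqle, the oxygenase that follows and a rate-limiting step of sterol synthesis, did not share this pattern. Its level was 46.9, 45.8, 44.03 and 48.1 CPM (controls) and 43.5, 42.5, 52.9 and 49.2 CPM (BPA mice). The 2 lowest and the 2 highest of the 8 libraries were all BPA libraries, so the means were close (fold 1.02, 0.919 to 1.13). Lss, which closes the ring to lanosterol, was at 24.7 to 27.3 CPM (controls) and 22.3 to 29.5 CPM (BPA mice), a fold of 0.951 (95% interval 0.844 to 1.07).

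From lanosterol to cholesterol, 6 of 8 enzymes had a log2 fold change above 0, with a median of 0.050, and 0 reached an unadjusted p under 0.05. The shares of all tested genes were 50.0% and 4.52%. Cyp51, the lanosterol demethylase, was at 63.03, 53.4, 56.6 and 61.9 CPM (controls) and at 56.6, 59.2, 64.6 and 63.03 CPM (BPA mice), with interleaved groups (fold 1.04, 0.945 to 1.14). Msmo1, the methyl oxidase of the same stretch, was at 121 ± 7.74 CPM (controls) and 135 ± 17.1 CPM (BPA mice), a fold of 1.12 (95% interval 0.992 to 1.26). BPA replicate 4 was the highest, at 157 CPM. The log2 fold change was 0.16 with all libraries (unadjusted edgeR p 0.0655), and it ran from 0.081 without BPA replicate 4 to 0.22 without BPA replicate 1 (unadjusted edgeR p 0.249 and 0.0128). With log2 library total in the model it was 0.29 (unadjusted edgeR p 0.0387).

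Dhcr7, the reductase of the last step on the Kandutsch-Russell route, was at 17.7, 18.6, 17.4 and 19.1 CPM (controls) and 18.9, 18.2, 18.4 and 20.03 CPM (BPA mice), a fold of 1.04 (95% interval 0.953 to 1.13). The ranges of the groups overlapped. Folds of the other enzymes were 1.01 for Tm7sf2, a sterol reductase, 1.03 for Nsdhl, which removes the carboxylated methyl groups, and 1.06 for Ebp, the sterol isomerase. Hsd17b7, a ketoreductase, and Sc5d, a desaturase, had folds of 0.943 (0.820 to 1.09) and 0.966 (0.890 to 1.05). All 5 intervals held no change.

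Across the 19 synthesis enzymes, 14 had a log2 fold change above 0 and 5 below, the median was 0.052, and 1 reached an unadjusted p under 0.05. Among all tested genes 50.0% were above 0 and 4.52% reached that p. The counts of enzymes describe a list chosen with earlier results of these data known. Levels also varied between libraries of a group. Relative to its own mean over the 8 libraries, the median enzyme was at 0.11 (log2 CPM) in BPA replicate 3, 0.079 in BPA replicate 4 and 0.053 in control replicate 4. It was at -0.076 in control replicate 2, -0.079 in control replicate 3, -0.075 in BPA replicate 1, -0.028 in BPA replicate 2 and -0.0035 in control replicate 1. High and low libraries thus occurred in both groups: 16 and 17 of the 19 enzymes lay above their mean in BPA replicates 3 and 4 and 15 of 19 in control replicate 4, against 6 and 7 in BPA replicates 1 and 2. For all tested genes the share above the mean was 49.3 to 51.05% in every library. The median log2 fold change of the list stayed above 0 in all 17 fits. It ran from 0.022 without BPA replicate 3 to 0.070 without BPA replicate 2, and was 0.024 without BPA replicate 4, 0.033 without control replicate 3 and 0.11 with log2 library total in the model.

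**Figure D3:**
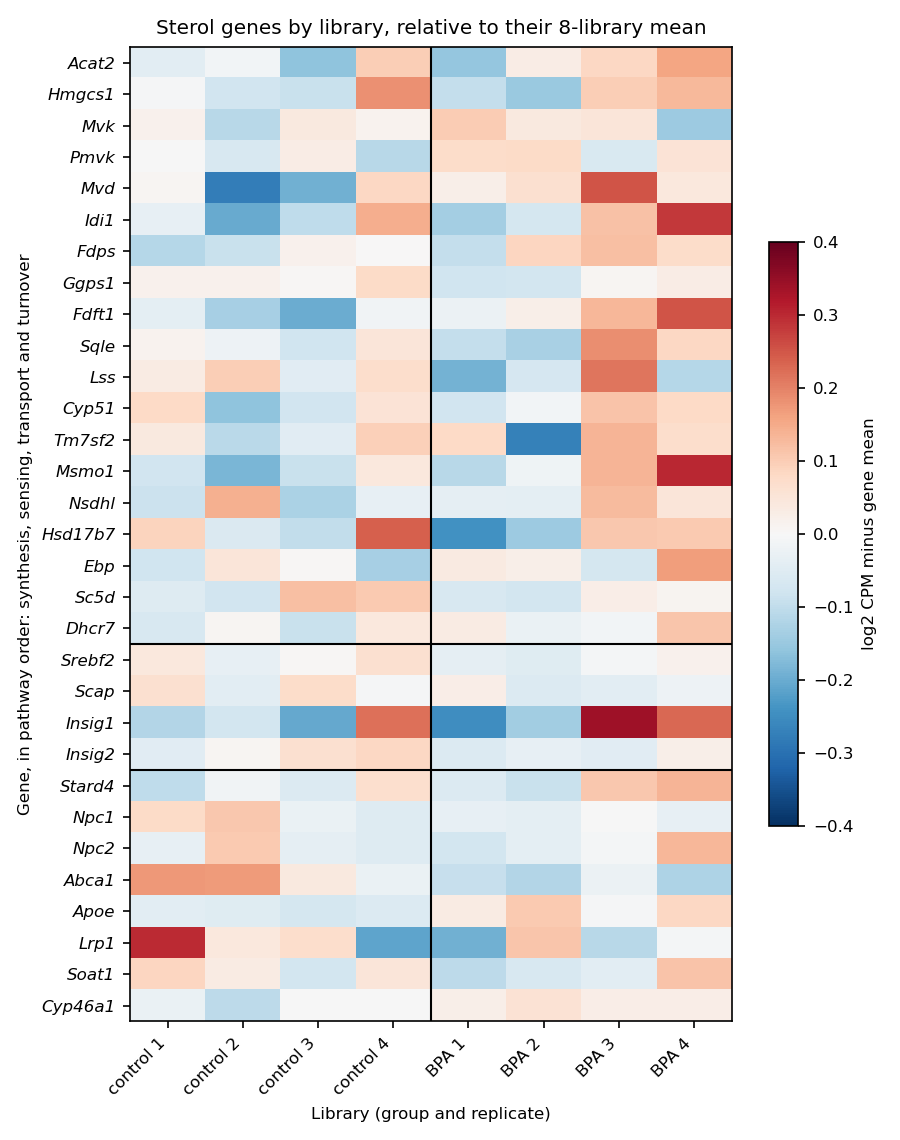
Each row is a gene and each column a library; colour is log2 CPM minus the mean of that gene over the 8 libraries. Among the enzymes above the first horizontal line, BPA replicates 3 and 4 and control replicate 4 are mostly red (16, 17 and 15 of 19 above the mean), and control replicates 2 and 3 and BPA replicates 1 and 2 mostly blue.

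Among the sensors, Insig1 followed the same libraries with the widest swing. Insig1, itself induced by SREBP, was at 51.2, 52.8, 48.2 and 64.7 CPM (controls) and at 46.7, 50.4, 70.3 and 65.2 CPM (BPA mice). The lowest and the highest library were both BPA libraries, and the 3 highest were BPA replicates 3 and 4 and control replicate 4. The fold was 1.07 with the broad interval of 0.891 to 1.29, a log2 fold change of 0.10. On leaving out 1 library it ran from -0.0015 (BPA replicate 3) to 0.19 (control replicate 4), and with log2 library total in the model it was 0.36 (unadjusted edgeR p 0.0709).

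Insig2, the isoform that does not depend on SREBP in the same way, was steady at 49.98, 51.8, 53.9 and 54.6 CPM (controls) and 49.6, 50.3, 49.97 and 52.4 CPM (BPA mice), a fold of 0.963 (95% interval 0.901 to 1.03). Its libraries spanned a far smaller range than those of Insig1. Srebf2, which encodes SREBP2, was at 101, 95.8, 98.3 and 103 CPM (controls) and 95.7, 94.9, 97.5 and 99.3 CPM (BPA mice), a fold of 0.974 (95% interval 0.917 to 1.03). Scap was at 42.8 ± 1.66 and 41.5 ± 1.03 CPM (fold 0.968, 0.905 to 1.04). The intervals of Srebf2, Scap and Insig2 together ran from 0.901 to 1.04, each at 95% for its own gene and in the fit without a depth term. With log2 library total in the model their log2 fold changes were -0.0040, -0.043 and 0.021.

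**Figure D4:**
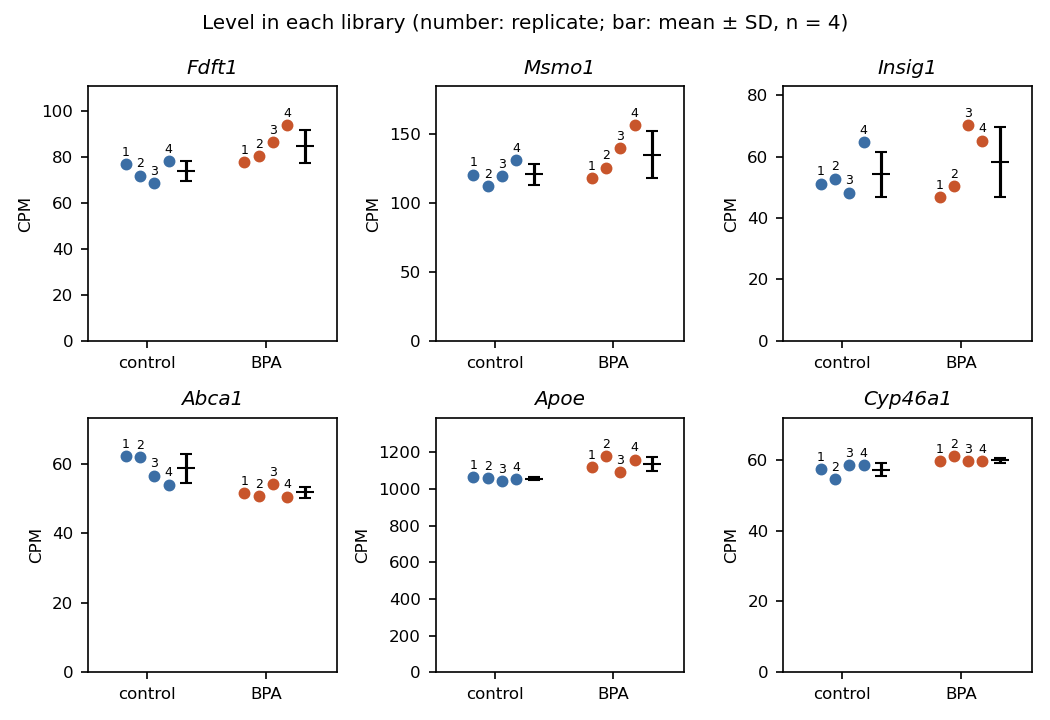
Level of 6 genes in CPM in each of the 4 control and 4 BPA libraries (numbers give the replicate; bars are mean ± SD). Apoe and Cyp46a1 have no overlap between groups, Abca1 overlaps by 1 library, and Insig1 has its lowest and highest value among the BPA libraries, 46.7 and 70.3 CPM.

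Of the 8 genes of transport and turnover, 2 reached an unadjusted p under 0.05, in opposite directions. Among all tested genes 4.52% reached it. Abca1, the membrane exporter that loads cholesterol onto apolipoproteins, was at 62.1, 61.9, 56.5 and 53.9 CPM in control replicates 1 to 4 and at 51.5, 50.6, 54.1 and 50.5 CPM in BPA replicates 1 to 4. Only BPA replicate 3 reached into the control range, by passing control replicate 4. The fold was 0.881 (95% interval 0.813 to 0.955; log2 -0.18 ± 0.053), an unadjusted edgeR p of 0.00482 and an adjusted p of 0.955. The direction held whichever 1 library was left out, from -0.22 to -0.15, and with log2 library total in the model the log2 fold change was -0.29 (unadjusted edgeR p 0.00337). Abca1 (chromosome 4, 53030787 to 53159895) overlaps no annotated exon of another gene.

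Apoe was higher in BPA mice by a small amount, with an SD of 8.72 CPM around a control mean of 1055 CPM. It was at 1063, 1059, 1043 and 1054 CPM (controls) and at 1120.2, 1177, 1091 and 1159 CPM (BPA mice). Every BPA library lay above every control library. The groups of 2 of the 31 genes, Apoe and Cyp46a1, did not overlap in CPM, beside 2.79% of all tested genes. The fold of Apoe was 1.08 (95% interval 1.02 to 1.14; log2 0.11 ± 0.038), with an unadjusted edgeR p of 0.0146 and an adjusted p of 0.955. With log2 library total in the model the log2 fold change was 0.068 and the unadjusted edgeR p 0.269. With every library thinned to the smallest total they were 0.11 and 0.0119, and without BPA replicate 2 they were 0.091 and 0.0540. Apoe is made by astrocytes and microglia; the summed level of 12 astrocyte markers was 2646 to 2802 CPM (controls) and 2687 to 2799 CPM (BPA mice), and that of 11 microglia markers 234 to 249.9 and 232 to 256 CPM, with 0 of either list unread in any library. Their part in the result was not tested.

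Lrp1, a large endocytic receptor for apolipoprotein E, varied more than any other transport gene. It was at 424, 355, 362 and 298 CPM (controls) and 302, 373, 319 and 343 CPM (BPA mice). The highest and the lowest library were both controls, which are also the deepest and the shallowest of the control libraries, and the highest BPA library is the deepest of all. The fold was 0.928 (0.806 to 1.07). With log2 library total in the model the log2 fold change was -0.44 and the unadjusted edgeR p 0.000407. With no depth term the log2 fold change was -0.11, and on leaving out 1 library it ran from -0.19 without control replicate 4 (unadjusted edgeR p 0.0398) to -0.018 without control replicate 1.

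Inside the cell, Npc2 binds cholesterol freed in lysosomes and Npc1 passes it through the lysosomal membrane. Npc1 was at 58.2, 59.4, 54.2 and 53.3 CPM (controls) and 53.9, 53.7, 55.1 and 53.95 CPM (BPA mice), a fold of 0.961 (95% interval 0.897 to 1.03). The BPA values fell within a narrow band at the lower end of the control range. Npc2 was at 22.2 ± 1.16 and 22.3 ± 1.44 CPM (fold 1.00, 0.917 to 1.10).

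Stard4, a soluble carrier of sterol to the endoplasmic reticulum and an SREBP target, was at 19.3, 20.5, 19.9 and 21.7 CPM (controls) and 19.9, 19.5, 22.3 and 22.8 CPM (BPA mice), a fold of 1.04 (95% interval 0.941 to 1.15). Its 3 highest libraries were those in which most synthesis enzymes were high. Soat1, which esterifies cholesterol for storage, was at 32.7, 31.5, 29.2 and 31.8 CPM (controls) and 28.6, 29.4, 29.9 and 33.3 CPM (BPA mice), a fold of 0.967 (95% interval 0.886 to 1.06). Neither gene separated the groups.

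Cyp46a1, the neuronal hydroxylase that makes 24-hydroxycholesterol, was at 57.4, 54.4, 58.5 and 58.4 CPM (controls) and at 59.5, 60.9, 59.54 and 59.5 CPM (BPA mice). Each BPA library lay above each control library, though the nearest were close, control replicate 3 at 58.5 CPM and BPA replicate 1 at 59.5 CPM. The fold was 1.05 (95% interval 0.985 to 1.11; log2 0.067 ± 0.041), with an unadjusted edgeR p of 0.127. Over the 8 transport and turnover genes, 4 had a log2 fold change above 0 and 4 below, with a median of -0.021. The share of all tested genes above 0 was 50.0%.

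Related pathways gave no called gene either. Of 16 genes of fatty acid synthesis and desaturation, 5 were above 0 and 11 below, and the lowest p belonged to Scd1, the stearoyl-CoA desaturase, at 179.96 ± 6.20 CPM (controls) and 163 ± 9.36 CPM (BPA mice) without overlap (log2 -0.14 ± 0.050), and to Fads2, a fatty acid desaturase (0.11 ± 0.054). Of 12 other genes of SREBP processing and degradation, 10 were below 0, with Srebf1, the SREBP1 gene, at -0.15 ± 0.089 and Tmem41b at -0.068 ± 0.041. The branches to prenylation, dolichol and ubiquinone had 13 of 15 genes below 0, a median of -0.041 and 1 gene with an unadjusted p under 0.05, Pggt1b, a subunit of a protein prenyltransferase (-0.13 ± 0.059); Zmpste24, which processes prenylated lamin A, was at -0.076 ± 0.048. The medians of the fatty acid and SREBP lists were -0.021 and -0.028, and that of all tested genes was 4.91e-05. Of all tested genes, 50.0% were above 0 and 4.52% had an unadjusted edgeR p under 0.05.

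Other genes of sterol transport and turnover numbered 28, of which 27 were tested; Soat2, with 23 reads in all, was too low. Of the 27, 11 were above 0 and 16 below, and 3 had an unadjusted p under 0.05. The shares over all tested genes were 50.0% above 0 and 4.52% under that p. Mylip, an LXR-induced ubiquitin ligase for lipoprotein receptors, was at 21.6, 21.7, 20.9 and 23.5 CPM (controls) and 19.7, 15.98, 19.9 and 17.4 CPM (BPA mice), without overlap (log2 -0.26 ± 0.075; edgeR adjusted p 0.955). Ch25h, the cholesterol 25-hydroxylase of activated immune cells, was below 1 CPM in all 8 libraries, 0.311 ± 0.0905 CPM (controls) and 0.584 ± 0.170 CPM (BPA mice), a log2 fold change of 0.90 ± 0.29, from 149 reads over the 8 libraries. Cyp27a1, the sterol 27-hydroxylase, was below 2 CPM in every library (log2 -0.51 ± 0.21).

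Myelin, a main store of brain cholesterol, was followed through oligodendrocyte markers. Of 12 markers, 9 had a log2 fold change below 0 and 3 reached an unadjusted p under 0.05. Over all tested genes, 50.0% were above 0 and 4.52% reached that p. Among the 3 were Ugt8a, the galactolipid synthase of myelin (-0.16 ± 0.054), and Ermn (-0.13 ± 0.047). The summed level of the 12 markers was 2315 to 2580 CPM (controls) and 2277 to 2401 CPM (BPA mice), with overlap. Its part in the values of the sterol genes was not tested. Neuron markers summed to 10781 to 12601 CPM (controls) and 10951 to 11271 CPM (BPA mice).

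**Figure D5:**
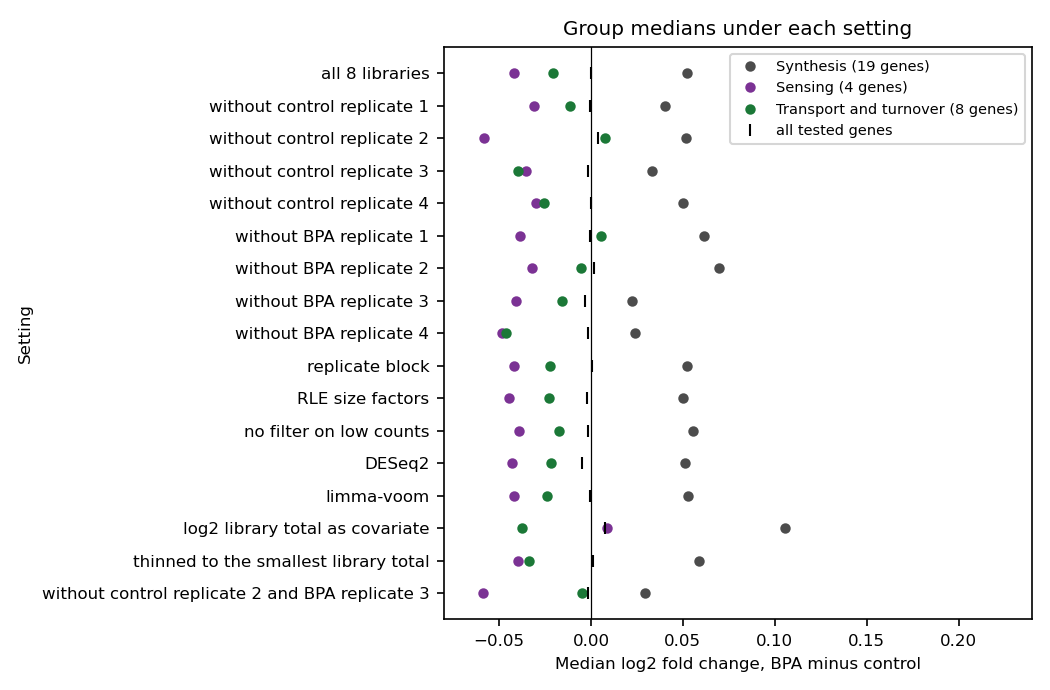
Median log2 fold change of the 19 synthesis, 4 sensing and 8 transport and turnover genes (points) and of all tested genes (ticks) with all 8 libraries and under each of 16 alternatives. The synthesis median lies between 0.022 and 0.11 in every setting, and the transport and turnover median between -0.046 and 0.0074.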

How the data were processed

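RNA of 8 hippocampi was measured. The authors deposited raw whole-number read counts per gene symbol, not normalized, for 24527 rows; the submitters' processing notes list STAR 2.3.0e, featureCounts 1.5.0 and Trimmomatic 0.32 with the mm10 build, and DESeq2 with no version. The gene set is refGene, per the file headers. Columns were matched by the library code in each title. Rn45s took 5.15 to 7.57% of counts.

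Genes were filtered with filterByExpr, which left 15434, scaled by TMM and tested with edgeR 4.0.16 (R 4.3.3): quasi-likelihood, 1 group term, two-sided, Benjamini-Hochberg at 0.05. SEs and 95% intervals come from the test statistic. CPM use TMM-scaled totals. On simulated counts for the same comparison (15359 genes tested), 38% of genes changed 1.25-fold, 78% at 1.5-fold and 92% at 2-fold were recovered, with 6 false calls. There 50 genes were changed at each fold, and the spread of each gene was set by the trend over genes. The shares hold for that setting, not for the measured data, in which no gene was called. No 2 libraries of a group were alike within sampling noise (12 pairs, chi-square over degrees of freedom 10.2 to 24.8).

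Members, lists and tests were chosen with earlier results of these data known. All members are given; those with an unadjusted p under 0.05 and 12 others by library; of each related list, the genes under that p, or at least the 2 lowest. The values of 1 marker gene that met this rule are not reported here. Positions come from GENCODE M21 (mm10). Exons of Hmgcs1, Idi1, Ggps1, Fdft1, Lss, Cyp51, Scap and Npc1 overlap a gene on the opposite strand, and those of Fdps and Tm7sf2 one on the same strand, which leaves their counts uncertain. The 16 alternatives included leaving out each library, a replicate block, RLE scaling, no filter, DESeq2 1.42.0, limma-voom 3.58.1, a depth covariate and thinning.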

Additional observations from a re-analysis of the deposited data

Results flagged for a closer look

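Of 62 sets of 4 values (31 genes in each group), 4 held a library that stood apart from the other 3 by more than Dixon's 95% limit, where chance gives about 1 in 20. Pmvk was at 10.7 CPM in BPA replicate 3, below 11.6 to 11.7 CPM in the other BPA libraries. Mvd was at 8.23 CPM in the same library, above 7.02 to 7.22 CPM. Npc2 was at 23.9 CPM in control replicate 2, the library with the most choroid plexus RNA, above 21.5 to 21.7 CPM in the other controls. Cyp46a1 was at 60.9 CPM in BPA replicate 2, above 59.5 to 59.54 CPM in the other BPA libraries.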

How the results depend on the processing

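No member passed under any of the 16 alternatives. Over all genes DESeq2 called 7 and every other setting 0. The count of members with an unadjusted p under 0.05 was 3 with all libraries, and 3 to 6 on leaving out 1 library. Fdft1 and Abca1 were among them in all 17 fits and Apoe in 15; Msmo1, Mvd, Lrp1, Lss and Fdps entered in some. The synthesis median of 0.052 ran from 0.022 to 0.070 on leaving out 1 library, and was 0.11 with log2 library total as covariate and 0.029 without control replicate 2 and BPA replicate 3. The count of enzymes above 0 was 17 and 10 in the last 2 settings. Of the 31 genes, 21 kept 1 direction in every fit. Among the others, leaving out 1 library gave log2 fold changes of -0.052 to 0.056 for Hmgcs1, -0.0082 to 0.074 for Mvk, -0.037 to 0.071 for Sqle, -0.031 to 0.10 for Tm7sf2, -0.0015 to 0.19 for Insig1, 0.0085 to 0.089 for Cyp51 and -0.038 to 0.046 for Npc2. The depth covariate turned Hmgcs1 to 0.16, Hsd17b7 to 0.044, Sc5d to 0.094, Insig2 to 0.021 and Npc2 to -0.0091. Thinning turned Hmgcs1 to 0.0033 and Mvk to -0.013. Without control replicate 2 and BPA replicate 3, Hmgcs1 was at -0.069, Npc2 at 0.047, Mvk at -0.021, Sqle at -0.042, Cyp51 at -0.023, Tm7sf2 at -0.068 and Insig1 at -0.015; the cause was not tested. The replicate numbers are not said to pair the mice, and same-numbered libraries deviated with correlations of -0.37 to 0.070; with the replicate block the synthesis median was 0.052 and 4 members had an unadjusted p under 0.05, Msmo1 in addition (0.15). Since BPA libraries were deeper in every case, depth limits what the group difference can show.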

Other observations

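Abca1, Mylip, Scd1 and Srebf1 are known to be induced by LXR, as is Apoe. A list of 10 LXR-induced genes was written after these values were seen, so it supports nothing: 6 had a log2 fold change below 0 and 4 above, with a median of -0.056, beside 4.91e-05 for all tested genes. Beside Mylip (-0.26 ± 0.075), Abca1 (-0.18 ± 0.053), Srebf1 (-0.15 ± 0.089) and Scd1 (-0.14 ± 0.050), Lpl was at -0.075 ± 0.082 and Nr1h3, the LXR alpha gene, at -0.036 ± 0.16. Abcg1, an exporter under the same receptors, was at 0.020 ± 0.039, Lpcat3 at 0.047 ± 0.062, Smpdl3a at 0.0058 ± 0.083 and Apoe at 0.11 ± 0.038. Directions within the list were mixed, where 50.0% of all tested genes were above 0, and nothing is concluded from them. Whether LXR induces each of the 10 in mouse hippocampus was not tested.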
